A study of Homo sapiens with 18 samples.

Results

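HP1γ was depleted with a pool of siRNAs against its gene CBX3 in MDA-MB-231 cells, a mesenchymal triple-negative breast cancer (TNBC) line, and the cells were treated with the synthetic glucocorticoid (GC) dexamethasone (Dex). The 3 siHP1γ Dex libraries were compared with the 3 siNS Dex libraries, whose cells received a non-specific siRNA and the same Dex treatment. These 6 libraries of 18 were taken by their siRNA and treatment labels alone. Both groups received Dex at 100 nM for 8 h, and the methods of the study state that cells were grown in charcoal-stripped serum beforehand. The other libraries are siNS and siHP1γ cells given the vehicle (Eth) and cells with siRNA against PRMT5 (siPRMT5) given Eth or Dex, all in 3 replicates. P-values measure the spread between the samples, which the study describes as 3 replicates of each condition, in 1 cell line and with 1 siRNA pool against HP1γ.

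HP1γ belongs to the heterochromatin protein 1 family, whose members bind histone H3 methylated at lysine 9 through a chromodomain. It is found in silent chromatin and also along transcribed genes, and it can act as a coregulator of transcription factors. The glucocorticoid receptor (GR), encoded by NR3C1, is a transcription factor that Dex activates; once bound to its hormone it raises the mRNA levels of targets such as FKBP5 and lowers those of many inflammatory genes. Arginine methyltransferase PRMT5 is the other factor depleted in the series.

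The siNS Dex libraries held 11517559, 9486609 and 11299486 counts and the siHP1γ Dex libraries 12327634, 9953398 and 10244205 counts, in the order of replicates 1 to 3. Scatter between replicates, measured as chi-square per degree of freedom, was 11.3 for siHP1γ Dex replicates 1 and 3, the highest of any pair within a condition, and 6.796 and 3.031 for the other siHP1γ Dex pairs. The 3 siNS Dex pairs gave 3.693, 2.307 and 2.528, where counting error alone would give about 1. mRNA levels are given as CPM, counts scaled to the same library total, in replicates 1, 2 and 3, with totals adjusted by trimmed mean of M-values (TMM) factors.

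Marker genes described the same kind of cell in all 6 libraries. All 8 genes of a mesenchymal TNBC list were detected, with VIM, an intermediate filament gene, giving the most counts. Their summed level was 11820, 12170 and 12180 CPM in siNS Dex and 9668, 9814 and 9980 CPM in siHP1γ Dex, without overlap. Within the list 1 gene was higher and 5 were lower, among them CAV1, which encodes the caveolar coat protein, at 760.4, 808 and 706 CPM in siNS Dex against 513, 483 and 445 CPM in siHP1γ Dex (log2 fold change -0.66, adjusted p = 4.4e-08), the receptor tyrosine kinase gene AXL (-0.38), the cytoskeletal linker gene MSN (-0.31) and VIM (-0.28). The 1 higher gene lost its call when any of the 6 libraries was left out. Of this list 75.0% was called, against 24.0% of all genes tested (11.7% higher and 12.3% lower). Defining genes of luminal breast cells were at or near 0 in these 6 libraries: ESR1 and PGR had at most 2 counts and TFF1 had 0 counts. Other luminal markers were detected, with KRT18 giving the most counts, and the summed level of the luminal list was 692.4, 723 and 686.9 CPM in siNS Dex and 441.7, 561 and 582 CPM in siHP1γ Dex, without overlap. The keratin genes KRT8 (-0.63) and KRT18 (-0.33) were lower, while FOXA1, a pioneer factor, was higher (0.91) as was EPCAM (0.47). Of the luminal genes tested 66.7% were called, against the same 24.0% of all genes. With 1 library left out KRT18 ran from -0.41 to -0.2, and the luminal list then had as few as 1 lower gene. Summed marker levels of fibroblasts (7.07 to 12.1 CPM, COL1A1 highest), leukocytes (1.74 to 3.85 CPM, CD68 highest) and endothelial cells (10.8 to 12.7 CPM, KDR highest) stayed low in all 6 libraries. How the difference in mesenchymal markers relates to the results below was not tested, and in bulk RNA fewer cells of a kind and less RNA per cell cannot be told apart. Annotated genes overlap CAV1, AXL, VIM, FOXA1, EPCAM, KRT8 and KRT18.

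The knockdown was strong in all 3 siHP1γ Dex libraries. CBX3 was measured at 220.4, 241 and 229 CPM in siNS Dex and 15.8, 13.98 and 11.4 CPM in siHP1γ Dex. The log2 fold change was -4.06 ± 0.105 (standard error; adjusted p = 1.12e-19 over all genes tested with edgeR; later values after ± are standard errors too), so that 5.96% of the siNS level was left. Every siHP1γ Dex library lay far below every siNS Dex library; with 3 against 3 samples the smallest 2-sided p an exact permutation test can give is 0.1, and it holds for every gene below whose groups do not overlap. Of 8 processed pseudogenes of CBX3, 2 had enough counts to be tested and both were lower: CBX3P9 fell from 1109 counts over the siNS Dex libraries to 41, and CBX3P1 from 30 to 2. Reads of the parent gene can align to such copies, so these counts are not separate measurements. Annotated genes overlap both copies. The paralogs CBX1, which encodes HP1β, and CBX5, which encodes HP1α, did not pass the test, with log2 fold changes of -0.02 (adjusted p = 0.844) and 0.00 (adjusted p = 0.986). CBX1 was measured at 119.7, 124 and 122 CPM in siNS Dex and 119, 126 and 114 CPM in siHP1γ Dex, and CBX5 at 147, 150.2 and 141 CPM in siNS Dex and 159.9, 142 and 136 CPM in siHP1γ Dex, with overlapping groups for both genes. These values are near 0, and their sign turned with single libraries: CBX1 had a log2 fold change of 0.0090 without siHP1γ Dex replicate 3, and CBX5 of -0.07 without siHP1γ Dex replicate 1 and -0.02 without siNS Dex replicate 3. Depth and spread limit this: a small difference in either paralog was not detectable with 3 libraries a group.

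Genes that write, read or bind H3K9 methylation had no common direction. In a list of HP1 proteins, H3K9 enzymes and their partners 2 of 26 members tested were higher and 6, CBX3 included, lower; 30.8% were called, against 24.0% of all 15298 genes tested (11.7% higher and 12.3% lower), and the median log2 fold change of the list was 0.00068, with 13 members above 0 and 13 below. With scaling by library size alone 4 were higher and 5 lower. LBR, the lamin B receptor that binds HP1 proteins at the nuclear envelope, was at 165, 151 and 147 CPM in siNS Dex against 99.1, 71.1 and 67.1 CPM in siHP1γ Dex (log2 fold change -0.96 ± 0.121, adjusted p = 1.68e-06), with no overlap between groups. TASOR, a subunit of the HUSH silencing complex, fell by 0.70 on the log2 scale (adjusted p = 6.38e-06), and TRIM28, the corepressor that zinc finger proteins recruit, by 0.43 (adjusted p = 7.38e-05). NR3C1 itself was at 122, 129.8 and 130.3 CPM in siNS Dex and 149, 129 and 116 CPM in siHP1γ Dex, and the groups overlapped (log2 fold change 0.05 ± 0.0897, adjusted p = 0.758); without siHP1γ Dex replicate 1 its log2 fold change was -0.06. This list had 0 higher without siHP1γ Dex replicate 2 or siNS Dex replicate 2 and 1 higher without siNS Dex replicate 3. Among 25 GR chaperones and coregulators tested 1 was higher and 5 were lower, and the share called, 24.0%, was that of all genes tested. The GR list had 0 higher without siHP1γ Dex replicate 2 or siNS Dex replicate 3, 3 higher without siHP1γ Dex replicate 3 and 2 higher without siNS Dex replicate 2. With scaling by library size alone 6 of its members were higher. The largest of these differences was PTGES3, which encodes the HSP90 cochaperone p23 of the receptor complex, at 289, 270.4 and 268 CPM in siNS Dex against 139, 118 and 113 CPM in siHP1γ Dex (log2 fold change -1.16 ± 0.0949, adjusted p = 1.33e-09); HSP90AA1 (-0.28), PRMT5 (-0.35) and its cofactor WDR77 (-0.53) were lower too. The mean level of PRMT5 in siHP1γ Dex was 78.7% of that in siNS Dex, and neither group of 3 libraries overlapped the other. Annotated genes overlap CBX3, CBX1, CBX5, NR3C1, TASOR, TRIM28, PTGES3, HSP90AA1, PRMT5 and WDR77, so some of their counts may come from neighbours. Overlap was looked up for the genes named by rule, and for no gene named after its values were seen. Of the genes named by rule, ARNTL, LINC02657 and LINC00346 were not found in the annotation used, so their overlap is not known.

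Beyond CBX3 the response to HP1γ depletion was broad and mostly small in size. Of 15298 genes tested 24.0% differed at an adjusted p below 0.05, 11.7% being higher and 12.3% lower after HP1γ depletion. The median change among called genes was 0.44 on the log2 scale for the higher genes and -0.43 for the lower ones, and the median over all genes tested was 0.0048. A fold change of at least 1.5 was reached by 569 higher and 555 lower genes, and a fold change of at least 2 by 214 and 179. In 5638 genes (36.9%) the 3 siHP1γ Dex libraries did not overlap the 3 siNS Dex libraries, and 3512 of these were called. Higher genes had a median level of 27.5 CPM and lower genes 53.03 CPM, against 23.3 CPM over all genes tested. Of the 2631 genes that averaged 100 CPM or more, 254 were higher and 594 lower, while among the 906 genes under 1 CPM, 56 were higher and 21 lower. Lists described below also differ in level. In CPM, the median level was 284 for cytosolic ribosomal protein genes, 260 for fatty acid synthesis, 148 for mitosis and 106 for cholesterol synthesis. It was 2.3 for LINC noncoding RNAs, 2.67 for replication-dependent histones, 2.77 for clustered protocadherins and 13.1 for ZNF genes. How level relates to the direction of a list was not tested. The balance of directions depends on the scaling: with trimmed mean of M-values 48.7% of called genes were higher, and with library size alone 69.2%, as the median of all genes moved to 0.0864.

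The same siRNA changed many genes without Dex as well, in libraries that share none with the Dex comparison. In siHP1γ Eth against siNS Eth 31.8% of genes were called, 16.5% higher and 15.2% lower. The lists called with and without Dex shared 2298 genes with the same direction, which is 62.6% of the list with Dex and 47.3% of the list without Dex; 7 genes were called in opposite directions. Across genes the log2 fold changes with and without Dex had a Pearson r of 0.657 and a Spearman coefficient of 0.592, given as a description because genes are not independent replicates. A further 1364 genes were called with Dex alone, and 1104 of them had the same sign without Dex, so a call in only 1 of the comparisons is not by itself a difference between them.

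The largest increases, taken from called genes that averaged 5 CPM or more and had non-overlapping groups, spanned secreted, membrane and noncoding genes. LINC00460, a long noncoding RNA, was at 5.39, 7.74 and 6.53 CPM in siNS Dex against 23.9, 22 and 23.5 CPM in siHP1γ Dex (log2 fold change 1.83 ± 0.1296, adjusted p = 1.18e-10). SYTL2, which encodes a RAB27 effector in vesicle transport, was at 9.19, 11.2 and 11.6 CPM in siNS Dex against 39.8, 33.1 and 32.7 CPM in siHP1γ Dex (log2 fold change 1.73 ± 0.113, adjusted p = 3.02e-11). In both genes each siHP1γ Dex library was higher than any siNS Dex library, as the selection required. The others of the 12 were F2RL2, CXCL1 and CXCL8, described below, the unconventional myosin heavy chain gene MYH15 (1.51), APCDD1L (1.41), the endocytic receptor gene CUBN (1.41), the metalloprotease gene ADAM12 (1.36), the tyrosine phosphatase gene PTPN22 (1.32), the antisense RNA DLGAP1-AS2 (1.31) and the sulfotransferase gene CHST4 (1.3). All 12 had adjusted p-values between 3.02e-11 and 2.59e-05, and without Dex each was also higher, with log2 fold changes from 0.84 to 2.08. Annotated genes overlap F2RL2, APCDD1L, ADAM12, PTPN22, DLGAP1-AS2 and CHST4.

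The largest decreases after CBX3 and its pseudogene CBX3P9, taken by the same limits, reached genes of DNA replication, oxidative folding, growth control and purine synthesis. POLE3, a histone-fold subunit of DNA polymerase epsilon, was at 203, 185 and 186 CPM in siNS Dex against 60.5, 68.4 and 68.2 CPM in siHP1γ Dex (log2 fold change -1.54 ± 0.0703, adjusted p = 2.68e-14). ERO1A, the oxidase that renews disulfide formation in the endoplasmic reticulum, was at 198, 179 and 198 CPM in siNS Dex against 79.8, 61.4 and 57.2 CPM in siHP1γ Dex (log2 fold change -1.53 ± 0.1201, adjusted p = 6.03e-10). Neither gene had any overlap between groups, which the selection required. BTG3, an antiproliferative gene, was at 25.5, 19.9 and 21.6 CPM in siNS Dex against 6.297, 6.26 and 5.45 CPM in siHP1γ Dex (log2 fold change -1.9), and SCML1, related to Polycomb proteins, was at 66.95, 67.98 and 74.9 CPM in siNS Dex against 23.5, 16.3 and 15.7 CPM in siHP1γ Dex (-1.9). All siHP1γ Dex values of both genes lay below all siNS Dex values, again by the selection. The long noncoding RNA UCA1 (-1.78), the purine synthesis gene ADSL (-1.7), the RNA-binding protein gene CELF2 (-1.69), the AKT phosphatase gene PHLPP1 (-1.57) and RELL1 (-1.56) complete the 12 with CBX3, GIT1 and PLAT. Without Dex the same 12 genes were lower as well, and apart from CBX3 their log2 fold changes ran from -2.56 to -0.87. Counts of GIT1, BTG3, UCA1, ADSL, CELF2, PHLPP1, RELL1, POLE3 and ERO1A may include reads of overlapping genes.

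PLAT, IGFBP3, F2RL2 and GIT1 differed strongly between the groups, and they did so against different responses to Dex. PLAT encodes tissue plasminogen activator, a secreted protease that converts plasminogen to plasmin. It was measured at 145, 137 and 166 CPM in siNS Dex and 38.4, 42.7 and 44.2 CPM in siHP1γ Dex (log2 fold change -1.84 ± 0.0963, adjusted p = 4.87e-13), and 27.99% of the siNS mean was left. Without Dex PLAT was at 37.2, 46.3 and 41.5 CPM in siNS and 24.3, 22.4 and 22.1 CPM in siHP1γ, a log2 fold change of -0.87 (adjusted p = 1.08e-06). The siHP1γ Dex values fell within the range of the siNS Eth values, and the test of whether the effect differed with and without Dex gave -0.97 (adjusted p = 0.000872). IGFBP3, which binds insulin-like growth factors in the extracellular space, was at 506, 463 and 516 CPM in siNS Dex and 183, 194 and 189 CPM in siHP1γ Dex (log2 fold change -1.39 ± 0.0704, adjusted p = 2.6e-13). Its Eth libraries read 182, 190.1 and 217 CPM in siNS and 93.5, 96.3 and 108 CPM in siHP1γ (log2 fold change -0.99), and the difference between both effects was -0.41 with an adjusted p of 0.0671, above the threshold. For both Dex-induced genes the siHP1γ and siNS libraries were apart with Dex and also without it. CCBE1, a secreted protein of lymphatic vessel growth, had the same direction at a smaller size (79.5, 73.9 and 82.4 CPM in siNS Dex, 47.1, 44.4 and 43.8 CPM in siHP1γ Dex, log2 fold change -0.80). Annotated genes overlap CCBE1.

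F2RL2 and GIT1 differed whether or not Dex was given. F2RL2 encodes protease-activated receptor 3, a thrombin receptor, and lies at chr5:76615482-76623413 (minus strand). Its level was 2.74, 3.81 and 3.72 CPM in siNS Dex and 14.96, 12.4 and 11.6 CPM in siHP1γ Dex (log2 fold change 1.94 ± 0.164, adjusted p = 2.41e-09), and each depleted library had more than any control library. With Eth the values were 6.403, 5.61 and 5.904 CPM and 16.3, 15.7 and 18.6 CPM (log2 fold change 1.5), and the interaction did not pass the test (0.44, adjusted p = 0.331). GIT1, a scaffold and GTPase-activating protein of ARF proteins at focal adhesions, lies at chr17:29573475-29594054 (minus strand). It was at 91.5, 88.03 and 96.1 CPM in siNS Dex and 18.03, 21.9 and 21.8 CPM in siHP1γ Dex (log2 fold change -2.16 ± 0.0952, adjusted p = 1.57e-14), and 22.4% of the siNS mean was left. The Eth libraries gave 83.2, 99.8 and 85.3 CPM and 22.1, 22.7 and 25.5 CPM (log2 fold change -1.93; interaction -0.23, adjusted p = 0.383). In siPRMT5 cells with Dex the mean level of GIT1 was 56.6 CPM, between siNS Dex (91.9 CPM) and siHP1γ Dex (20.6 CPM), and that of F2RL2 was 4.19 CPM, near siNS Dex (3.42 CPM) and far from siHP1γ Dex (12.98 CPM). Genes on the same or the other strand overlap GIT1, and an antisense gene overlaps F2RL2.

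**Figure D1:**
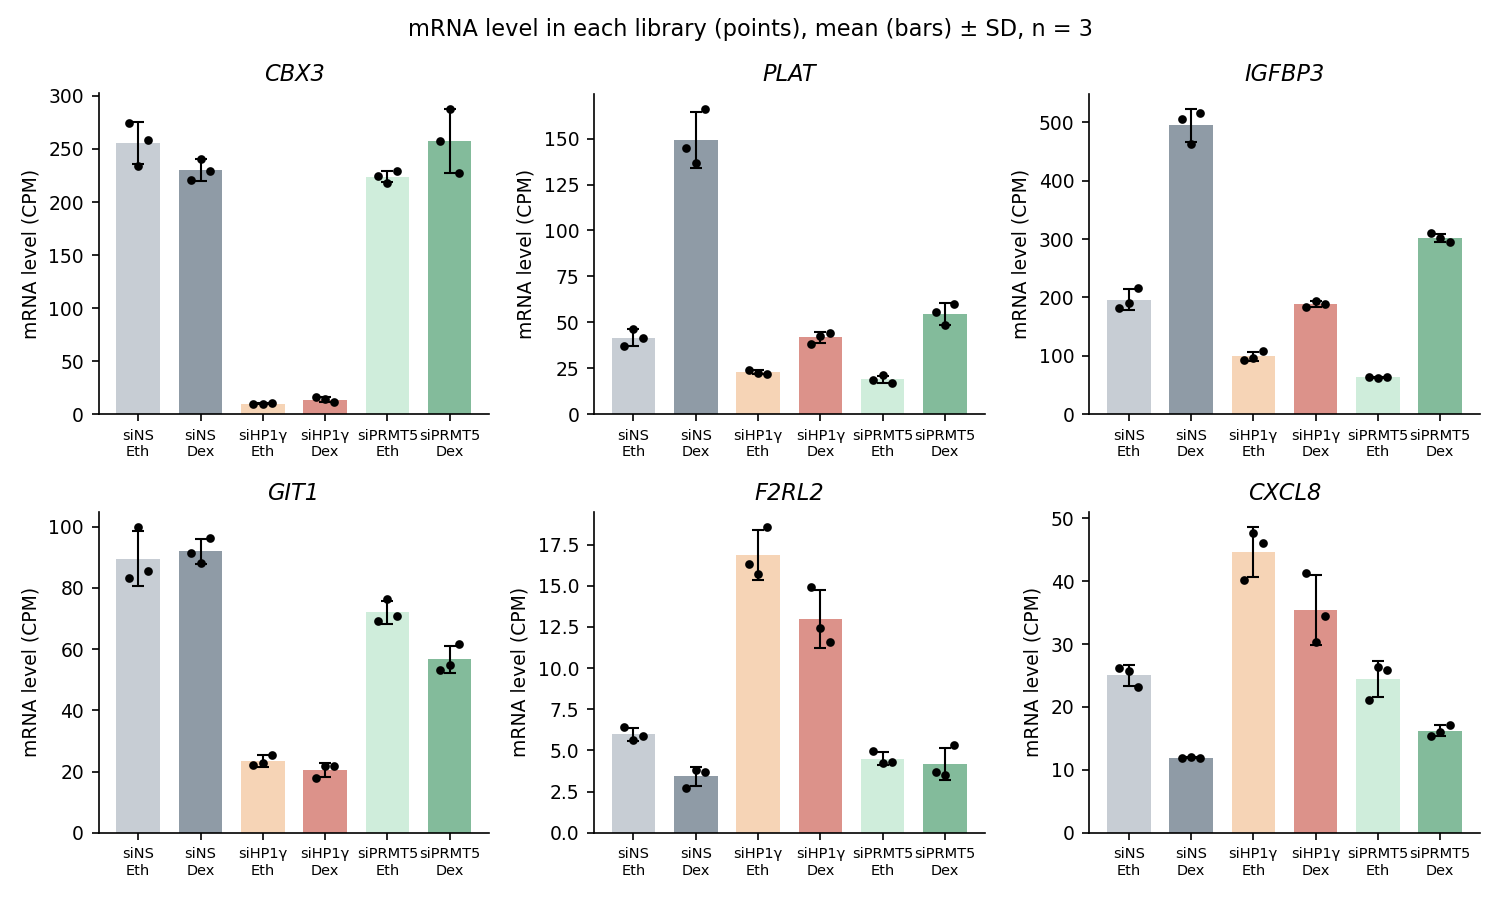
mRNA levels (CPM) of CBX3, PLAT, IGFBP3, GIT1, F2RL2 and CXCL8 in the 6 conditions; points are libraries, bars are means and error bars are SD (n = 3). CBX3 is near 0 in both siHP1γ conditions, PLAT and IGFBP3 are highest in siNS Dex, and F2RL2 and CXCL8 are higher in siHP1γ than in siNS with Dex and with Eth.

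Textbook glucocorticoid targets were lower more often than higher after HP1γ depletion in Dex-treated cells. Of 38 listed genes that GC induces in many cells, 34 were tested; 4 were higher, 16 lower and 14 not called (58.8% called, against 24.0% of all genes tested), with a median log2 fold change of -0.32 against 0.0048 over all genes. FKBP5, the HSP90 cochaperone that dampens GR, was at 502, 501 and 505 CPM in siNS Dex and 266, 248 and 236 CPM in siHP1γ Dex (log2 fold change -1.01 ± 0.0714, adjusted p = 1.18e-10). SGK1, a kinase of ion transport and survival, was at 105, 103 and 102 CPM in siNS Dex and 60.1, 54.9 and 49.9 CPM in siHP1γ Dex (log2 fold change -0.91 ± 0.0734, adjusted p = 1.11e-09). KLF9, a zinc finger transcription factor, was at 111, 107 and 125 CPM in siNS Dex and 71.6, 68.2 and 62.4 CPM in siHP1γ Dex (log2 fold change -0.76 ± 0.0838, adjusted p = 1.93e-07). In each of these genes the 3 depleted libraries were all below the 3 control libraries, and still above the siNS and siHP1γ libraries given Eth. DUSP1, a MAP kinase phosphatase, fell by 0.65 (adjusted p = 2.02e-07), and DDIT4, an inhibitor of mTORC1, by 0.78 on the same scale (adjusted p = 2.63e-07). Further lower members, named after their values were seen, were TSC22D3, which encodes GILZ (-0.82), the metallothionein gene MT1X (-0.84), the growth arrest gene GADD45B (-0.90) and the repressor gene BCL6 (-0.56). The higher members were NFKBIA, the NF-κB inhibitor (0.25), SLC19A2 (0.28), FOXO3 (0.29) and PDK4, a kinase that restrains pyruvate oxidation (0.71), also named after their values were seen. Not every listed gene rose with Dex in siNS cells. As log2 over the siNS Dex mean, the siNS Eth libraries were at 0.156, 0.0656 and 0.142 for FOXO3. They were at 0.0959, -0.245 and 0.0554 for SLC19A2, -1.22, -1.42 and -1.3 for NFKBIA, and -0.237, -0.997 and -0.974 for PDK4. The number of higher members was 2 without siHP1γ Dex replicate 1 and 0 without siNS Dex replicate 2, and the median was -0.193 without siNS Dex replicate 1 and -0.43 without siNS Dex replicate 2.

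Without Dex the same list had a different balance. Its median log2 fold change in siHP1γ Eth against siNS Eth was 0.07, with 8 members higher and 8 lower. Over all genes tested 16.5% were higher and 15.2% lower in that comparison. KLF9 had a log2 fold change of -0.07 and DDIT4 of -0.05 without Dex, and neither passed the test there. For 8 members of the list (TSC22D3, MT1E, DDIT4, BCL6, MT1X, PER1, SGK1 and KLF9) the effect of HP1γ depletion differed between Dex and Eth by the interaction test, each toward lower levels with Dex. That test called 0.399% of all genes tested, and its count depends on single libraries, as given below. FKBP5 (-0.57 without Dex; interaction -0.44, adjusted p = 0.0588) and DUSP1 (-0.60; -0.06, adjusted p = 0.819) did not pass it. Overlapping annotation touches FKBP5, SGK1 and DUSP1.

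**Figure D2:**
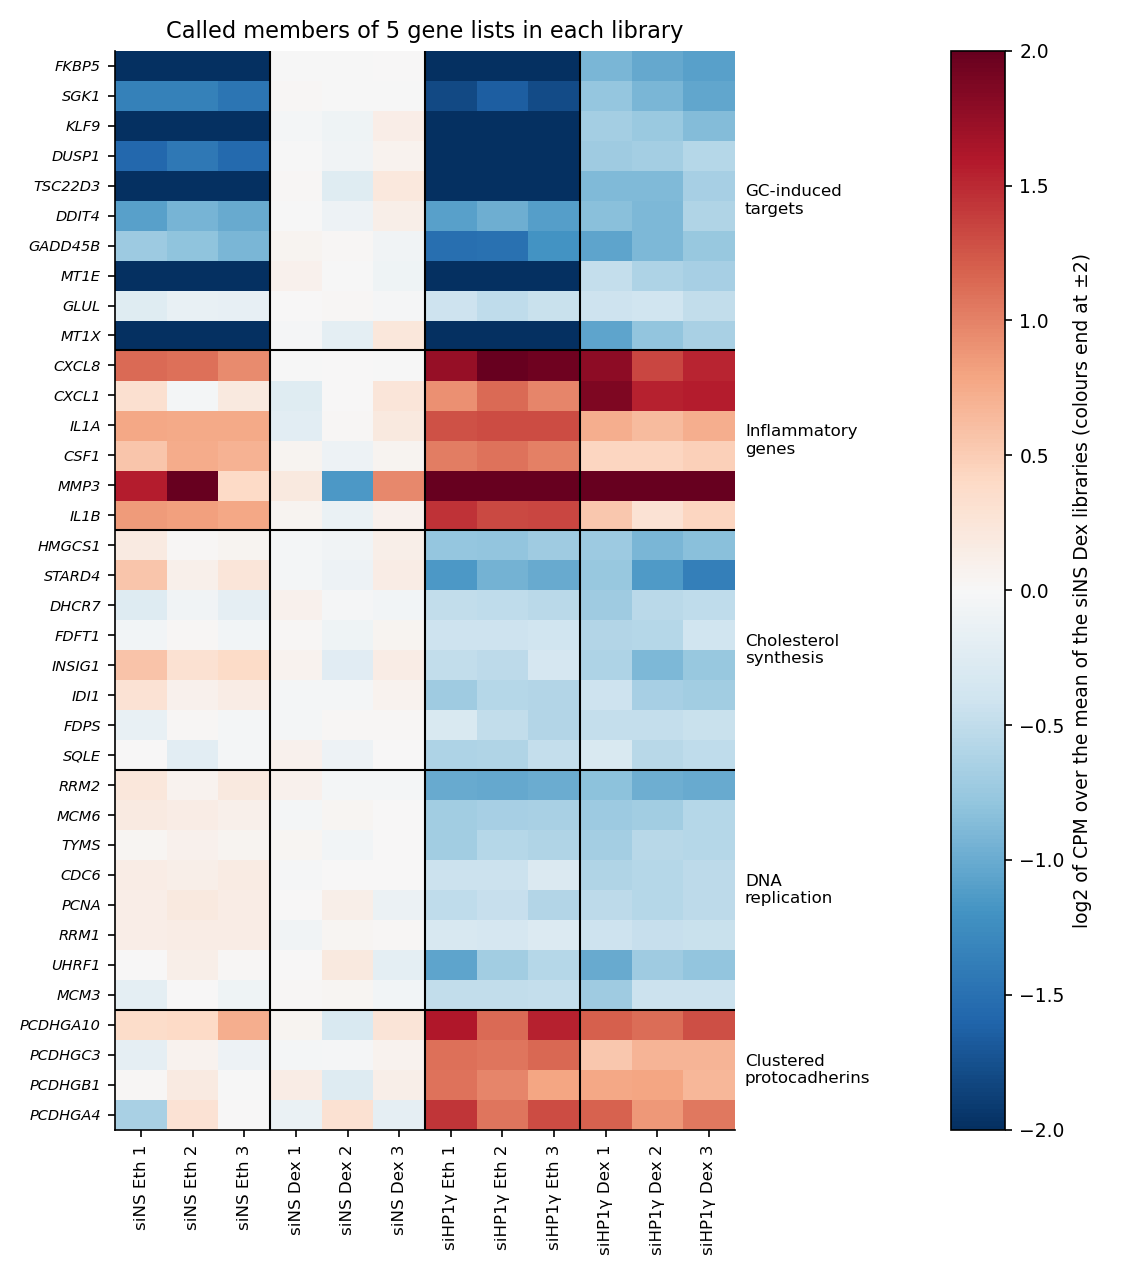
Rows are a selection of called members of 5 gene lists and columns are the 12 siNS and siHP1γ libraries; colour gives log2 of CPM over the mean of the siNS Dex libraries, and colours end at 2 and -2. The siHP1γ Dex libraries are blue for the GC-induced, cholesterol and replication genes shown and red for the inflammatory and protocadherin genes shown. Members were taken in order of p-value. PDK4, FOXO3, NFKBIA, SLC19A2, CCNE1 and IL24, called in the other direction of their lists, are not drawn.

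To describe Dex targets as a class without reusing the siNS Dex libraries, they were defined in siPRMT5 cells, where Dex was compared with Eth. This gave 412 Dex-induced genes (2.69% of genes tested) and 420 Dex-repressed genes (2.75%) at an adjusted p below 0.01 and a fold change of at least 1.5. Among the Dex-induced genes 64 were higher and 101 lower in siHP1γ Dex than in siNS Dex (40% called, against 24.0% of all genes tested, 11.7% being higher and 12.3% lower); their median log2 fold change was -0.0386, and it was 0.0422 when libraries were scaled by size alone, so no direction is given. Among the Dex-repressed genes 181 were higher and 34 lower (51.2% called), with a median of 0.277. The lower count was 20 without siNS Dex replicate 3. With scaling by library size alone 211 of the same genes were higher and 21 lower. Without Dex 98 of the induced genes were higher and 60 lower (median 0.102), and 188 of the repressed genes were higher and 34 lower (median 0.283), so the repressed class had about the same median in both settings. GCNT1, which encodes a glycan branching enzyme, was Dex-induced (log2 fold change 2.81 in siPRMT5 cells) and was at 74.1, 74.6 and 77.1 CPM in siNS Dex and 31.6, 24.2 and 22.4 CPM in siHP1γ Dex (log2 fold change -1.52 ± 0.102, adjusted p = 5.1e-11). Its groups did not overlap. Among Dex-repressed genes, the matrix gene TNC, which encodes tenascin-C, was at 21.8, 20.05 and 20.5 CPM in siNS Dex and 44.3, 45.4 and 52.2 CPM in siHP1γ Dex (log2 fold change 1.18 ± 0.0986, adjusted p = 1.85e-09), also without overlap, and the fibrillar collagen gene COL27A1 had a log2 fold change of 1.26 (adjusted p = 4.5e-09). The siPRMT5 definition leaves out genes whose Dex response depends on PRMT5, and the effect of that was not tested. Annotated genes overlap GCNT1, TNC and COL27A1.

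Dex targets defined in siNS cells share the siNS Dex libraries with the comparison, which pulls an induced gene with high siNS Dex counts toward a lower fold change. Their values are therefore given for description only: 32 of 252 Dex-induced genes were higher and 89 lower (median -0.178), and 91 of 162 Dex-repressed genes were higher and 14 lower (median 0.413). Of the called genes 3289 (89.6%) were not Dex-regulated in siPRMT5 cells; both siPRMT5 classes together hold 832 of the 15298 genes tested.

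**Figure D3:**
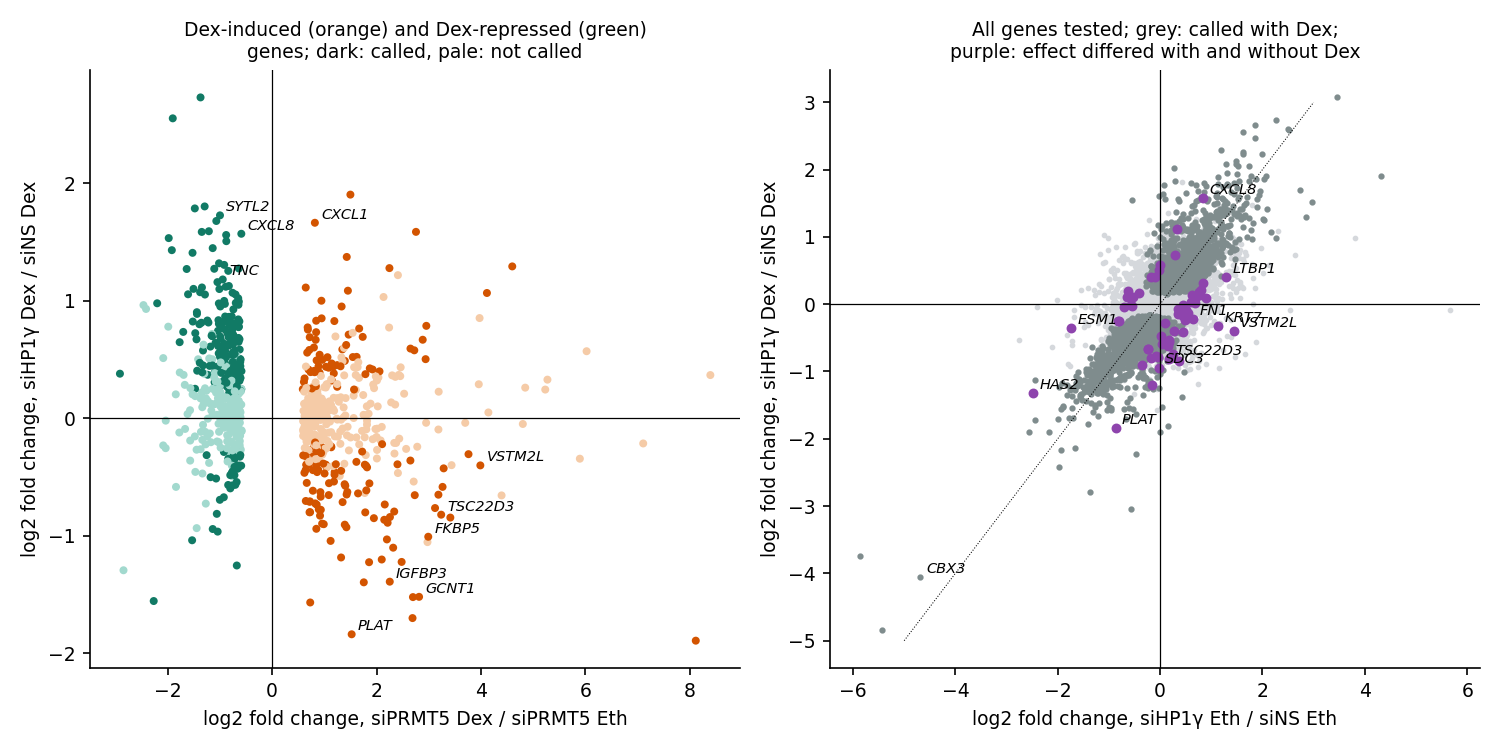
Left, each Dex-induced (orange) or Dex-repressed (green) gene by its log2 fold change with Dex in siPRMT5 cells (horizontal) and after HP1γ depletion with Dex (vertical), dark where called; right, all genes tested by their log2 fold change after HP1γ depletion without Dex (horizontal) and with Dex (vertical), with the line of equal change. Dex-repressed genes lie mostly above 0 (181 higher, 34 lower), Dex-induced genes on both sides (64 higher, 101 lower; the sign of their median turned when libraries were scaled by size alone), and purple marks the 61 genes whose effect differed with and without Dex.

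A direct test of whether HP1γ depletion acted differently with and without Dex found 61 genes (0.399% of genes tested), 18 with a more positive effect with Dex and 43 with a more negative one. Of the 43, 26 were Dex-induced in siPRMT5 cells, a class with 2.69% of all genes tested, and none was Dex-repressed. Of the 18, 8 were Dex-repressed, a class with 2.75% of all genes tested, and none was Dex-induced. This test shares the siNS Dex and siHP1γ Dex libraries with the comparison above, so its values stand beside the others without being counted as a separate result. SDC3, a cell surface proteoglycan gene, was at 97.8, 99.7 and 104 CPM in siNS Dex and 46.7, 55.05 and 55.7 CPM in siHP1γ Dex. Its log2 fold change was -0.94 with Dex and -0.02 without, a difference of -0.92 (adjusted p = 0.000549), and the Dex groups did not overlap. The actin-binding gene ABLIM3 (259, 231 and 254 CPM in siNS Dex, 188, 189 and 185 CPM in siHP1γ Dex) and the kinase anchoring gene AKAP12 were lower with Dex (-0.40 and -0.42) and higher without it (0.27 and 0.45). HAS2, a hyaluronan synthase gene, was lower in both settings, with log2 fold changes of -1.31 with Dex and -2.48 without. LTBP1, which stores latent TGF-β in the matrix, was higher in both, at 0.40 with Dex and 1.29 without. Other genes of the 61, named after their values were seen, were FN1, which encodes fibronectin (difference -0.86), RGCC (-0.99), ESM1 (1.37) and VSTM2L (-1.84). The number of genes that pass this test depends on single libraries: it was 24 without siNS Dex replicate 1 and 24 without siNS Dex replicate 3, and it was 298 with DESeq2. An unadjusted p below 0.05 was reached by 2636 genes. Annotated genes overlap ABLIM3, AKAP12, HAS2 and LTBP1.

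Inflammatory genes listed for being lowered by glucocorticoids in many cells were mostly higher after HP1γ depletion. Of 28 listed genes 18 were tested; 11 were higher and 1 was lower (66.7% called, against 24.0% of all genes tested), with a median log2 fold change of 0.44, and 0.54 without Dex. CXCL8, which encodes the neutrophil chemoattractant interleukin-8, was at 11.9, 11.98 and 11.9 CPM in siNS Dex and 41.3, 30.3 and 34.4 CPM in siHP1γ Dex (log2 fold change 1.57 ± 0.117, adjusted p = 2.61e-10). CXCL1, a related chemokine gene, was at 5.12, 6.101 and 7.16 CPM in siNS Dex and 22.2, 17.8 and 18.1 CPM in siHP1γ Dex (log2 fold change 1.67 ± 0.148, adjusted p = 5.29e-09). For both chemokine genes every depleted library was above every control library. Without Dex they were higher too (0.84 and 0.85); the interaction passed the test for CXCL8 (0.73, adjusted p = 0.0361) and not for CXCL1 (0.81, adjusted p = 0.0929). IL1A, a cytokine that starts inflammatory signalling, rose from 48.4, 56.7 and 63.7 CPM to 92.96, 86.4 and 92.04 CPM (log2 fold change 0.69 ± 0.0859, adjusted p = 1.39e-06), and CSF1, the macrophage growth factor gene, from 59.8, 53.3 and 59.5 CPM to 77.1, 77.7 and 79.5 CPM (log2 fold change 0.44 ± 0.0738, adjusted p = 7.77e-05). Other members were named after their values were seen: the stromelysin gene MMP3 (2.08), CXCL3 (0.73), CXCL2 (0.69), IL1B (0.42), CSF3 (0.38), IL11 (0.38) and LIF (0.29) were higher, and IL24 was lower (-1.01). MMP3 scattered widely between replicates. As log2 over the siNS Dex mean, its siNS Dex libraries were at 0.195, -1.16 and 0.96 and its siHP1γ Dex libraries at 2.06, 2.44 and 2.31. Members differed in their own response to Dex: in siPRMT5 cells CXCL1 (log2 fold change with Dex 0.82), CXCL2 (1.73) and CSF3 (1.18) were Dex-induced, and CSF1 (-1.05), CXCL8 (-0.59) and IL11 (-2.92) were Dex-repressed, so the rise after HP1γ depletion also took in genes that Dex does not lower there. The count of higher members was 7 without siHP1γ Dex replicate 2, 7 without siHP1γ Dex replicate 3, 6 without siNS Dex replicate 2 and 7 with DESeq2 on the 6 libraries; the lower member lost its call without siHP1γ Dex replicate 1 or 2 and without siNS Dex replicate 1 or 3.

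Promoter sequences are shown for the chemokine genes because they rose together; they were chosen after their values were seen. The sequence is the 250 bases before the annotated start from RefSeq on GRCh38.p14, and capitals mark the NF-κB motif searched, GGAATTTCC, on both strands. The motif was in the promoters of 5 of the 12 inflammatory genes that had an entry (41.7%: CXCL1, CXCL2, CXCL3, CXCL8 and ICAM1) and of 0.528% of the 10035 genes tested with an entry. ICAM1 was not called after HP1γ depletion. The CXCL genes are related, and the CXCL1 and CXCL2 sequences are alike around the motif, so these matches are not independent. CXCL1 is at chr4:73869143-73869392 (plus strand), CXCL2 at chr4:74099196-74099445 (minus strand) and CXCL8 at chr4:73740319-73740568 (plus strand), and the motif begins 78, 77 and 91 bases before their starts. A match is a description of the letters and no evidence of binding.
CXCL1: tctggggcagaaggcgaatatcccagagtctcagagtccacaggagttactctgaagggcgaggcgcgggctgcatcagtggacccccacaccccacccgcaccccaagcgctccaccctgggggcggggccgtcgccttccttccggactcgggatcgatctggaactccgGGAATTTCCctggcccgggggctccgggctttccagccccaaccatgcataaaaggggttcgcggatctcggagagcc
CXCL2: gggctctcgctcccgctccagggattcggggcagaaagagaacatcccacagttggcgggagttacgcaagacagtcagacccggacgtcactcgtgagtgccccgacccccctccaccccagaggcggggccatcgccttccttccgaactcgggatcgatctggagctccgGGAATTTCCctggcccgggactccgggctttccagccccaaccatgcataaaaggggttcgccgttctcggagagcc
CXCL8: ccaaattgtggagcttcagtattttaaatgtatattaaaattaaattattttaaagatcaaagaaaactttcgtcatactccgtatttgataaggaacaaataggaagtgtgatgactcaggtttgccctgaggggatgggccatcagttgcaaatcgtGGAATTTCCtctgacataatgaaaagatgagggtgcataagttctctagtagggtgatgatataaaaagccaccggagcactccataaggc

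Genes of cholesterol and fatty acid synthesis were lower as a group. Of 24 genes tested of cholesterol synthesis, uptake and its SREBP regulators, 19 were lower and 0 higher (79.2% called, against 24.0% of all genes tested, and a log2 fold change of -0.45 as the median of the list, and -0.35 without Dex, where 13 were lower and 1 higher). HMGCS1, which makes the precursor of mevalonate, was at 667, 658 and 745 CPM in siNS Dex and 418, 366 and 385 CPM in siHP1γ Dex (log2 fold change -0.82 ± 0.0694, adjusted p = 2.14e-09). Each depleted library was below each control library. STARD4, a sterol transporter, had a log2 fold change of -1.06 (adjusted p = 6.05e-07), and DHCR7, the last enzyme of the pathway, of -0.58 (adjusted p = 7.19e-07). SREBF2, a transcriptional regulator of these genes, was lower by less (-0.28; named after its value was seen). In fatty acid synthesis 9 of 10 genes tested were lower and 0 higher (median -0.46, and -0.31 without Dex, where 7 were lower and 0 higher). ACSL3, which activates fatty acids with coenzyme A, was at 272, 269.8 and 270.4 CPM in siNS Dex and 128, 113 and 108 CPM in siHP1γ Dex (log2 fold change -1.22 ± 0.0891, adjusted p = 2.2e-10), without overlap. The desaturase gene FADS2 (-0.78, adjusted p = 4.59e-09), the regulator SREBF1 (-0.69, adjusted p = 5.3e-07) and the fatty acid synthase gene FASN (-0.71, adjusted p = 9.7e-07) were lower. The interaction test did not pass for these genes (adjusted p = 0.936 for HMGCS1, 0.712 for ACSL3 and 0.0885 for FASN). Neighbouring annotation overlaps HMGCS1, STARD4, DHCR7, ACSL3, FADS2 and SREBF1.

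The CCAAT box, to which NF-Y binds, is shown in a pair of cholesterol genes that were lower, chosen after their values were seen. CCAAT was searched on both strands (ATTGG is the same motif on the other strand) in the 250 bases before each start, from RefSeq on GRCh38.p14. It was in the promoters of 20 of 27 lipid genes with an entry (74.1%) against 41.8% of the 10035 genes tested with an entry. The sterol element TCACNCCAC was in 1 of the 27 and in 1.16% of genes tested. HMGCS1 is at chr5:43313413-43313662 (minus strand), 1 of its 2 promoters in the table, and STARD4 at chr5:111512536-111512785 (minus strand). Capitals mark the motif, 155 and 100 bases before the start in HMGCS1 and 161 and 130 in STARD4.
HMGCS1: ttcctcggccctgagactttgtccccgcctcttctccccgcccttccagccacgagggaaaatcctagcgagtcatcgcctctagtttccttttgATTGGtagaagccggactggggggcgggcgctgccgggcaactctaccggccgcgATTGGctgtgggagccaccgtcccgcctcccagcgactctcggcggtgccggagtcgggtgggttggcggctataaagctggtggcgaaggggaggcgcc
STARD4: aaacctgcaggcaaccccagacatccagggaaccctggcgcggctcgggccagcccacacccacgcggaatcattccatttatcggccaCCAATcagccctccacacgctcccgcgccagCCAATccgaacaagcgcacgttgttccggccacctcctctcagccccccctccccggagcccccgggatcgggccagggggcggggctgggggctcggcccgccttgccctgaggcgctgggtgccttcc

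Cell cycle genes were lower, both those of DNA replication and those of mitosis. Of 43 replication genes tested 23 were lower and 1 was higher (55.8% called, against 24.0% of all genes tested), with a median log2 fold change of -0.35 and of -0.34 without Dex (27 lower, 1 higher); 2 were higher without siHP1γ Dex replicate 1 or 2. RRM2, the regulated subunit of ribonucleotide reductase, was at 155, 142 and 142 CPM in siNS Dex and 83.1, 74.02 and 72.4 CPM in siHP1γ Dex (log2 fold change -0.94 ± 0.0688, adjusted p = 2.2e-10). MCM6, part of the replicative helicase, was at 149, 158 and 155 CPM in siNS Dex and 93.1, 95.1 and 104 CPM in siHP1γ Dex (log2 fold change -0.66 ± 0.0649, adjusted p = 3.07e-08). The groups did not overlap in either gene. TYMS, the thymidylate synthase gene, fell by 0.60 (adjusted p = 4.46e-08) and CDC6, which loads the helicase, by 0.57 on the log2 scale (adjusted p = 3.15e-07). Among members named after their values were seen, UHRF1, which links replication with DNA methylation, had a log2 fold change of -0.84, E2F2 of -0.87 and the sliding clamp gene PCNA of -0.54, and the higher member was the cyclin gene CCNE1 (0.57). Of 51 mitosis genes 26 were lower and 0 higher (51% called, with a median of -0.20, and -0.28 without Dex, where 28 were lower and 1 higher); 17 were lower when libraries were scaled by size alone. CDC20, the activator of the anaphase promoting complex, was at 149, 154 and 152 CPM in siNS Dex and 85.01, 87.8 and 109 CPM in siHP1γ Dex (log2 fold change -0.69 ± 0.08796, adjusted p = 1.8e-06), again without overlap. CDCA8 (-0.52), KIF20A (-0.51) and the cyclin gene CCNA2 (-0.53) were lower as well. The number of cells in each phase was not measured. Annotated genes overlap RRM2, TYMS, KIF20A and CCNA2.

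Promoters of a pair of replication genes are shown with the E2F motif searched, TTTNGCGC, on both strands of the 250 bases before the start (RefSeq, GRCh38.p14); the genes were chosen after their values were seen. The motif was in the promoters of 11 of 37 replication genes with an entry (29.7%), of 3.06% of the 10035 genes tested with an entry and of 4.41% of the genes called lower. CCAAT was in 36 of 44 mitosis promoters (81.8%) against 41.8% of genes tested. MCM6 is at chr2:135876444-135876693 (minus strand), where 4 overlapping matches on both strands fall in 2 places, and UHRF1 at chr19:4909894-4910143 (plus strand), 1 of its 3 promoters in the table. Capitals mark the matches, 152, 148, 90 and 86 bases before the start in MCM6 and 160 in UHRF1.
MCM6: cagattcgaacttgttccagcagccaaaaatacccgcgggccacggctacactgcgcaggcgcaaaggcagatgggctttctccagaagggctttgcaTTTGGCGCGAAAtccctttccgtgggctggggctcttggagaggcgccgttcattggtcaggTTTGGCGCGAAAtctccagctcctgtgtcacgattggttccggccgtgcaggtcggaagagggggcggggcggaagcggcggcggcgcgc
UHRF1: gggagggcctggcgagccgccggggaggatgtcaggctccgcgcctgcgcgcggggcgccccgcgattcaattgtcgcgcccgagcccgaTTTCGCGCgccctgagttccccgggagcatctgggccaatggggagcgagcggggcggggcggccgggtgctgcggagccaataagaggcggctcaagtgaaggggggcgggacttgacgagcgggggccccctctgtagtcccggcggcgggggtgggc

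Cytosolic ribosomal protein genes had called members in the lower direction and 0 in the higher. Of 82 tested 33 were lower (40.2% called, against 24.0% of all genes tested, and a log2 fold change of -0.23 as the median of the list, and -0.27 without Dex, where 46 were lower and 0 higher). That count moved with single libraries and with scaling: 12 were lower without siHP1γ Dex replicate 1, 19 without siHP1γ Dex replicate 2, 53 without siHP1γ Dex replicate 3, 13 without siNS Dex replicate 2 and 10 when libraries were scaled by size alone. RPS20, a small subunit gene, was at 867, 1012 and 916 CPM in siNS Dex and 358, 437 and 448 CPM in siHP1γ Dex (log2 fold change -1.17 ± 0.08496, adjusted p = 1.89e-10), far apart and without overlap. RPS7 (-0.42), RPS19 (-0.41) and RPS14 (-0.40) were lower by less. Of 191 ribosomal protein pseudogenes tested 0 were higher and 24 lower (median -0.229), and of 900 other processed pseudogenes 16 were higher and 129 lower (median -0.126), beside 11.7% higher and 12.3% lower over all genes tested. Such copies share sequence with their parent genes and lack introns, and Bowtie2, which aligned the reads, has no spliced mode. Mitochondrial ribosomal protein genes had 2 higher and 9 lower members of 74 (14.9% called); with scaling by library size alone these were 9 and 7, so they have no stated direction. None of 13 mitochondrially encoded genes passed the count filter. Nuclear genes of oxidative phosphorylation had 8 lower and 0 higher members of 71 (median -0.10), a share called of 11.3% that lies below the 24.0% of all genes tested, with 13 lower and 1 higher without siHP1γ Dex replicate 3; NDUFS6, a complex I subunit gene, fell by 0.57 on the log2 scale. With scaling by library size alone the median was -0.02 for the oxidative phosphorylation genes and -0.145 for the cytosolic ribosomal protein genes. Annotated genes overlap RPS20 and RPS19.

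Zinc finger genes, many of which encode KRAB proteins that recruit TRIM28 and HP1 proteins to repeats, were lower more often than higher. Of 440 ZNF genes tested 95 were lower and 26 higher (27.5% called, against 24.0% of all genes tested, and -0.10 as the median of the list, and -0.09 without Dex, with 105 lower and 36 higher). Over all genes tested 11.7% were higher and 12.3% lower. The higher count of the ZNF list was 17 without siHP1γ Dex replicate 2, 16 without siNS Dex replicate 2, and 16 without siNS Dex replicate 3. With scaling by library size alone 72 were lower and 39 higher, and the median was -0.0236. ZNF134 was at 47.2, 50.1 and 46.3 CPM in siNS Dex against 26.1, 24.8 and 28.02 CPM in siHP1γ Dex (log2 fold change -0.86 ± 0.0824, adjusted p = 1.97e-08), with all depleted libraries lower. ZNF367 (-1.03) and ZNF473 (-0.71) were lower too, as was ZNF252P (-1.16), which is annotated as a long noncoding RNA. Genes of this list were taken by name, so it holds such noncoding entries. On chromosome 19, where many ZNF genes stand in clusters, 47 of 209 ZNF genes were lower and 6 higher (median -0.148), and elsewhere 47 of 229 were lower and 20 higher (median -0.0713). Of the other 686 genes tested on chromosome 19, 76 were lower and 42 higher. Annotated genes overlap ZNF252P, ZNF367 and ZNF473.

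Clustered protocadherins, cell adhesion genes in tandem arrays on chromosome 5, had called members in the higher direction and 0 in the lower. Of 30 tested 10 were higher (33.3% called, against 24.0% of all genes tested), and 1 was lower without siHP1γ Dex replicate 2 (median 0.41, and 0.53 without Dex, with 14 higher and 1 lower). PCDHGA10 was at 3.36, 2.61 and 3.9 CPM in siNS Dex and 7.48, 7.14 and 7.99 CPM in siHP1γ Dex (log2 fold change 1.18 ± 0.173, adjusted p = 1.34e-05), and PCDHGC3 at 21.5, 21.6 and 23.1 CPM in siNS Dex and 31.9, 35.5 and 35.4 CPM in siHP1γ Dex (log2 fold change 0.63 ± 0.112, adjusted p = 0.000151). Every depleted library was above every control library in both genes. Genes of the gamma array share constant exons and overlap each other in annotation, so their counts are not independent. Replication-dependent histone genes had 6 higher and 0 lower members of 15 tested (65 listed, 40% called, against 24.0% of all genes tested, and 0.43 as the median of the list, and 0 when no filter was set), and 3 were higher without siNS Dex replicate 3. H2AC6 was at 15.9, 17.9 and 15.96 CPM in siNS Dex and 25.3, 23.7 and 24.1 CPM in siHP1γ Dex (log2 fold change 0.56 ± 0.0936, adjusted p = 7.57e-05), without overlap, and H2BC5 (0.63) and H2BC21 (0.81) were higher; most histone mRNAs lack a poly(A) tail, and how such RNA was captured is not given in the sources used here. Annotated genes overlap H2AC6 and H2BC5.

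Noncoding genes were higher more often than lower, at low levels. The median was 2.3 CPM for LINC genes and 2.87 CPM for lncRNA genes, against 23.3 CPM over all genes tested. Of 165 LINC genes tested, of 2104 listed, 29 were higher and 4 lower (20% called, against 24.0% of all genes tested, and 0.26 as the median of the list, and 0 when no filter was set); 18 were higher when at least 10 counts were asked in every library, and without siHP1γ Dex replicate 2 or siNS Dex replicate 3 there were 2 lower. LINC00601 was at 16.9, 18.8 and 16.96 CPM in siNS Dex and 36.5, 38.8 and 41.2 CPM in siHP1γ Dex (log2 fold change 1.15 ± 0.0879, adjusted p = 4.14e-10), and LINC02657 had a log2 fold change of 1.68 and LINC00346 of 0.78. All 3 had groups without overlap. Over all 606 lncRNA genes tested 90 were higher (14.9%) and 32 lower (5.28%), while of 11672 protein-coding genes 1551 were higher and 1581 lower. By chromosome, the share of higher genes was largest on chromosome 6 and smallest on chromosome 19, picked here as the extremes. On chromosome 6, 121 of 633 genes were higher (19.1%) and 71 lower (11.2%). On chromosome 19, 48 of 895 were higher (5.36%) and 123 lower (13.7%), 47 of the lower ones being the ZNF genes above. Over all genes tested 11.7% were higher and 12.3% lower. Without Dex chromosome 6 had 132 higher and 108 lower, and chromosome 19 had 143 higher and 105 lower. Among protein-coding genes the median span was 44.3 kb for higher genes and 38.03 kb for lower genes, against 35.7 kb over all 11672 tested. Germline genes that stay silent in somatic cells, which HP1 proteins are known to help repress, mostly had too few counts to be tested: 1 of 27 listed passed the filter, MAGEA3 (named after its value was seen), and it was not called. HOX genes had 2 higher and 0 lower of 15 (13.3% called), calls that were lost when single libraries were left out. The HOX list had 1 higher without siHP1γ Dex replicate 1, 0 higher without siHP1γ Dex replicate 2 or 3 or siNS Dex replicate 1, 2 or 3 and 1 lower without siHP1γ Dex replicate 3 or siNS Dex replicate 2. Polycomb genes had 2 higher (4 with scaling by library size alone) and 6 lower of 26 (30.8% called), among them SCML2 (-1.13), PCGF6 (-0.88) and the H3K27 methyltransferase gene EZH2 (-0.41). Annotated genes overlap SCML2, PCGF6 and EZH2.

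**Figure D4:**
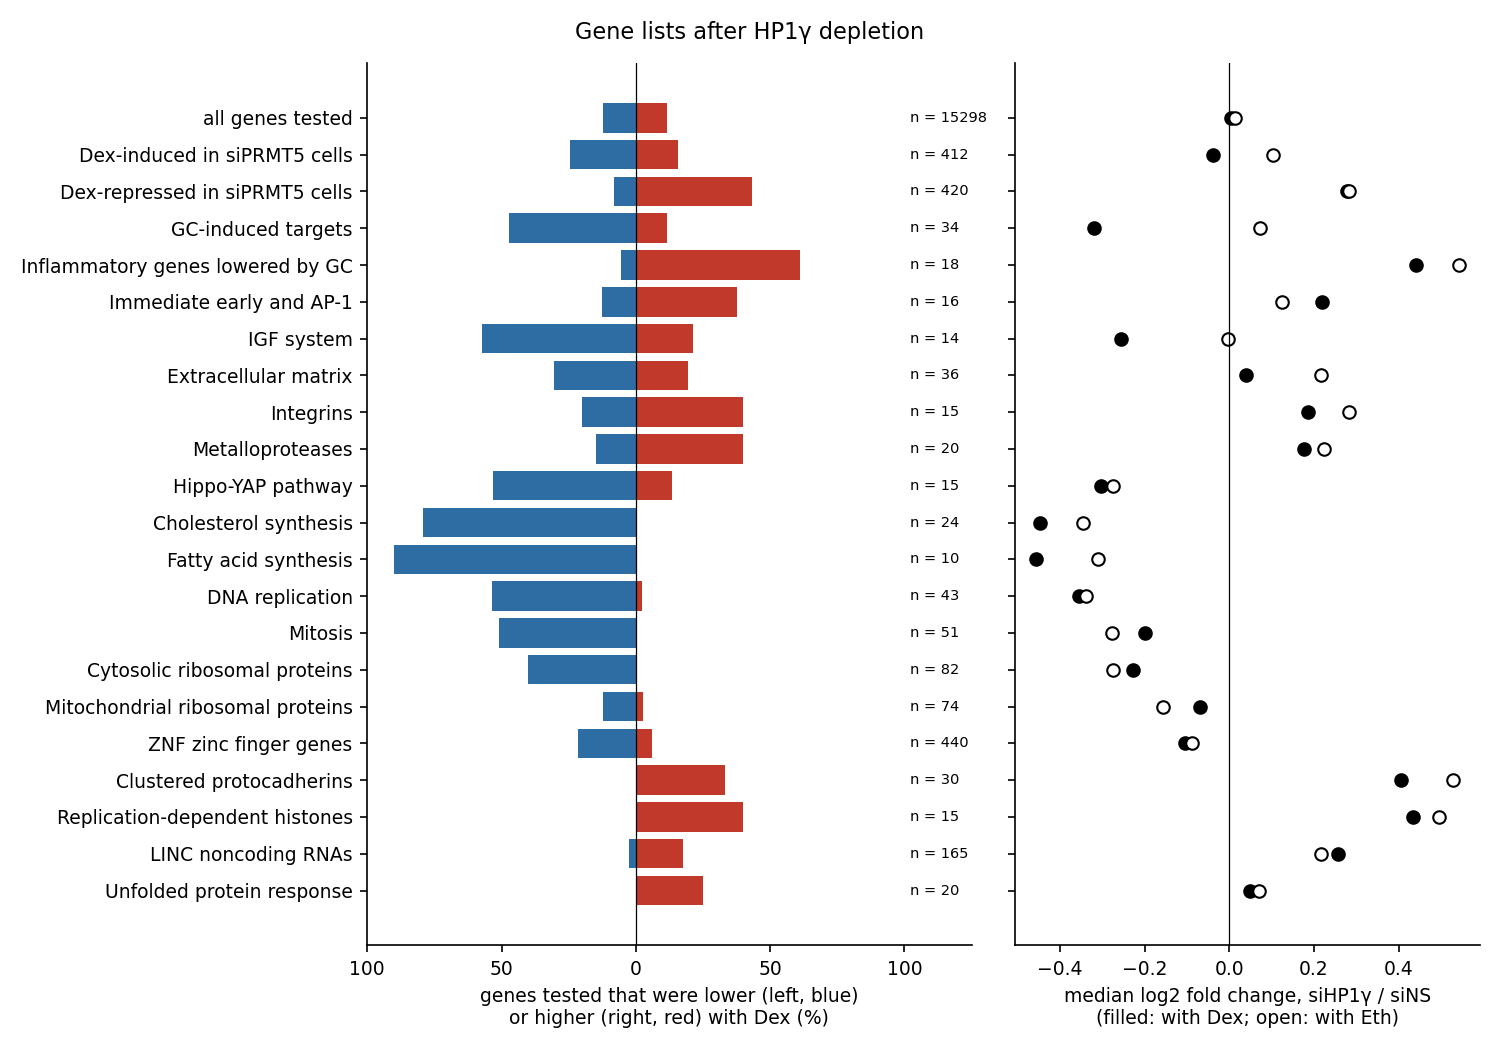
Left, share of tested members of each gene list that were lower (blue) or higher (red) in siHP1γ Dex than in siNS Dex, with the number tested; right, the median log2 fold change of each list with Dex (filled) and with Eth (open). Cholesterol, fatty acid and replication genes lie on the blue side and inflammatory and protocadherin genes on the red side, against 12.3% lower and 11.7% higher for all genes; with scaling by library size alone the medians of several lists, Dex-induced genes and mitochondrial ribosomal proteins among them, turned positive.

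Genes of the cell surface and matrix changed in both directions. The share called, 24.0% over all genes tested (11.7% higher, 12.3% lower), was 78.6% in the IGF system, 60% for integrins, 55% for metalloproteases, 50% for extracellular matrix genes, 41.7% in the coagulation list and 36.4% in the plasminogen list. In the plasminogen system 2 of 11 genes were higher and 2 lower: besides PLAT, the plasminogen receptor gene ANXA2 was lower (-0.57, adjusted p = 5.67e-05), and PLAUR, the urokinase receptor gene, was higher (0.39, adjusted p = 0.00356). Among protease-activated receptors and coagulation genes 4 of 12 were higher, F2RL2 with them, and tissue factor, encoded by F3, was lower (-0.37, adjusted p = 0.00295). In the IGF system 3 of 14 were higher and 8 lower (median -0.26, and -0.0024 without Dex). INSR, the insulin receptor gene, was lower (-0.85, adjusted p = 7.14e-08) as was IGFBP4 (-0.61, adjusted p = 2.43e-06), while STC1, a stanniocalcin that inhibits the protease PAPPA, was higher at 39.7, 33.01 and 39.7 CPM in siNS Dex against 58.2, 54.9 and 62.1 CPM in siHP1γ Dex (log2 fold change 0.64 ± 0.0816, adjusted p = 2.06e-06). STC2 (1.56) and PAPPA (1.27), named after their values were seen, were higher as well. The plasminogen list had 1 higher without siHP1γ Dex replicate 3 or siNS Dex replicate 2 or 3. The coagulation list had 2 higher without siHP1γ Dex replicate 1 or 2 or siNS Dex replicate 2 or 3 and 2 lower without siHP1γ Dex replicate 1. The lower count of the IGF system was 5 without siNS Dex replicate 1 and 5 with scaling by library size alone. Extracellular matrix genes had 7 higher and 11 lower of 36, HAS2, TNC and COL27A1 among them. Integrin genes had 6 higher and 3 lower of 15 (median 0.19): ITGA2 (0.65) and ITGA6 (0.36) were higher and ITGB4, the partner of ITGA6 in hemidesmosomes, was lower (-0.94, adjusted p = 4.18e-06). Metalloproteases had 8 higher and 3 lower of 20 (median 0.18), and 5 higher and a median of 0.0677 without siNS Dex replicate 2; the median was 0.0276 when at least 10 counts were asked in every library; ADAMTS6 was higher (0.59, adjusted p = 1.64e-07), with an interaction of 0.58 (adjusted p = 0.00108), and ADAM15 was lower (-0.79, adjusted p = 3.48e-07). Annotated genes overlap ANXA2, PLAUR, ITGA2, ITGA6, ITGB4, ADAMTS6 and ADAM15.

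Signalling pathways likewise had members on both sides. The share called, 24.0% over all genes tested, was 66.7% for Hippo-YAP genes, 50% for immediate early and AP-1 genes, 39.3% in the TGF-β list, 39.1% for p53 targets, 36.4% for VEGF and lymphangiogenic genes, 32.1% for guidance genes and 26.3% in the EGFR pathway. Hippo-YAP genes had 2 higher and 8 lower of 15 (median -0.30, and -0.27 without Dex), and 1 higher without siHP1γ Dex replicate 1, 2 or 3 or siNS Dex replicate 2 or 3. ANKRD1, a YAP target gene, was at 770.0, 848 and 744 CPM in siNS Dex and 486, 515 and 505 CPM in siHP1γ Dex (log2 fold change -0.65 ± 0.06298, adjusted p = 2.51e-08), without overlap, and the YAP targets CCN1 (-0.43) and CCN2 (-0.39) and the transcription factor gene TEAD4 (-0.63) were lower. The TGF-β list had 7 higher and 4 lower of 28 (median 0.12), with TGFBR2 (0.33, adjusted p = 0.000124) and LTBP2 (0.63, adjusted p = 1.19e-06) higher and TGFBR3 (-0.80, adjusted p = 4.83e-07) and BMPR1A (-1.09, adjusted p = 7.64e-07) lower; without siNS Dex replicate 3 there were 2 lower. In the EGFR pathway 2 of 19 were higher and 3 lower: HBEGF, an EGFR ligand gene, was at 94.2, 90.4 and 87.8 CPM in siNS Dex against 146, 150.5 and 153 CPM in siHP1γ Dex (log2 fold change 0.72 ± 0.0692, adjusted p = 1.92e-08), and EGFR itself (-0.38), the ligand gene EPGN (-1.23) and the feedback inhibitor gene SPRY4 (-0.40) were lower. Immediate early and AP-1 genes had 6 higher and 2 lower of 16 (median 0.22), with 2 higher without siNS Dex replicate 2 and 1 lower without siHP1γ Dex replicate 1 or siNS Dex replicate 3; JUN was higher (0.41, adjusted p = 0.000614) and IER2 lower (-0.51, adjusted p = 0.000239). VEGF and lymphangiogenic genes had 3 higher and 1 lower of 11 (median 0.21): VEGFA was at 68.02, 73.5 and 70.5 CPM in siNS Dex against 106, 112 and 111 CPM in siHP1γ Dex (log2 fold change 0.64 ± 0.0688, adjusted p = 1.51e-07), NRP2 was higher (0.58) and CCBE1 was the lower member. Guidance genes of the ephrin and semaphorin families had 4 higher and 5 lower of 28, PLXNA1 being lower with Dex (-0.54, adjusted p = 0.000326). The guidance list had 2 lower without siHP1γ Dex replicate 1 and 2 higher without siNS Dex replicate 2. The EGFR list had 1 higher without siNS Dex replicate 2 or 3. With scaling by library size alone the EGFR list had 5 higher. Among p53 targets 6 of 23 were higher and 3 lower, MDM2 falling (-0.89, adjusted p = 1.76e-06) and BTG2 (0.99, adjusted p = 2.22e-05) and SESN2 (0.75, adjusted p = 3.3e-05) rising. Annotated genes overlap CCN2, TGFBR2, TGFBR3, LTBP2, BMPR1A, EGFR, SPRY4, IER2, VEGFA, NRP2 and MDM2.

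Interferon-response and mesenchymal-state genes had called members in both directions. Interferon genes had 3 higher and 7 lower of 37 (27% called, against 24.0% of all genes tested), and 2 higher and 12 lower without Dex. IFIT1, an antiviral RNA-binding protein gene, was at 212, 231 and 212 CPM in siNS Dex and 120.4, 128 and 136 CPM in siHP1γ Dex (log2 fold change -0.77 ± 0.07001, adjusted p = 8.69e-09), without overlap, and IFIT2 (-0.69), IFIT3 (-0.51) and OASL (-0.98) were lower. The higher members, named after their values were seen, were GBP2 (1.10, adjusted p = 3.02e-05), IFIT5 (0.45) and IFI16 (0.24). In the mesenchymal-state list 4 of 21 were higher and 5 lower (42.9% called), and 13 of the 21 had a log2 fold change below 0. AXL and KRT8 were among the lower members. SNAI1, a repressor of epithelial genes, rose from 4.68, 4.58 and 5.08 CPM to 7.71, 8.31 and 10.3 CPM (log2 fold change 0.87 ± 0.168, adjusted p = 0.000387), and TGFBI was higher (0.38). Keratin genes had 2 higher and 2 lower of 6: KRT80 was at 17.8, 15.3 and 14.6 CPM in siNS Dex against 26.6, 32.4 and 28.8 CPM in siHP1γ Dex (log2 fold change 0.87 ± 0.117, adjusted p = 3.57e-06), KRT15 was higher (1.0), and KRT8 was at 298, 330.3 and 308 CPM in siNS Dex against 167, 205 and 234 CPM in siHP1γ Dex (log2 fold change -0.63 ± 0.114, adjusted p = 0.000183). Without siHP1γ Dex replicate 1 the keratin list had 1 lower. The single histocompatibility gene tested was not called. Annotated neighbours overlap IFIT1, IFIT2, IFIT3, KRT80, KRT15 and KRT8.

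Metabolic and stress lists held single genes with large differences, SLC7A1 and ADM among them. Against 24.0% of all genes tested, the share called was 47.8% in the ATF4 list, 43.8% for heat shock genes, 35.3% for glycolysis and hypoxia genes, 30.4% for solute carriers, 25% for unfolded protein response genes and 21.1% for aminoacyl-tRNA synthetase genes. In the ATF4 list SLC7A1, an amino acid transporter gene, was at 313, 283 and 292 CPM in siNS Dex and 157, 158 and 135 CPM in siHP1γ Dex (log2 fold change -0.98 ± 0.0775, adjusted p = 7.05e-10) and SLC7A5, another such gene, had a log2 fold change of -0.90 (adjusted p = 6.73e-10). TRIB3, an ATF4 target, was lower as well (-0.88, adjusted p = 3.28e-07), and the list as a whole had 5 higher and 6 lower of 23, or 8 higher with scaling by library size alone. Aminoacyl-tRNA synthetase genes had 4 lower and 0 higher of 19, FARSB (-0.30) and KARS1 (-0.30) with them, and 2 lower and 1 higher with scaling by library size alone. Of unfolded protein response genes 5 of 20 were higher and 0 lower, among them the stress sensor genes ERN1 (0.63, adjusted p = 0.000749) and EIF2AK3 (0.34, adjusted p = 0.00226); 3 were higher without siHP1γ Dex replicate 3 or siNS Dex replicate 2, 1 was lower without siHP1γ Dex replicate 1, and 8 were higher with scaling by library size alone. Heat shock genes had 3 higher and 4 lower of 16, with the mitochondrial chaperonin gene HSPD1 lower (-0.54, adjusted p = 1.35e-07). Glycolysis and hypoxia genes had 4 higher and 8 lower of 34, and 8 higher and 3 lower with scaling by library size alone. ADM, which encodes adrenomedullin, a vasodilator peptide, was at 38.3, 40.96 and 36.7 CPM in siNS Dex and 14.2, 15.4 and 15.9 CPM in siHP1γ Dex (log2 fold change -1.35 ± 0.103, adjusted p = 4.02e-10), without overlap; ENO1, a glycolytic enzyme gene, was lower (-0.44). The heat shock list had 1 higher without siHP1γ Dex replicate 1 or siNS Dex replicate 2 or 3 and 0 higher without siNS Dex replicate 1. The glycolysis list had 4 lower without siHP1γ Dex replicate 1 or siNS Dex replicate 2, 5 lower without siNS Dex replicate 1 and 2 higher without siNS Dex replicate 3. Solute carriers had 35 higher and 27 lower of 204, SLC17A5 (-1.23) and SLC41A1 (-0.92) being lower; the higher count was 19 without siNS Dex replicate 2 and 23 without siNS Dex replicate 3. Annotated genes overlap SLC7A5, KARS1, ERN1, EIF2AK3, HSPD1, ENO1, SLC17A5 and SLC41A1.

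Clock, transcription and RNA-processing genes complete the lists. Beside 24.0% of all genes tested, the share called was 42.1% for circadian genes, 30.0% for RNA polymerase II and pausing genes, 27.8% for DNA repair, 20.6% for splicing factor, 19% for nucleoporin and 17.9% for proteasome genes. Circadian genes had 4 higher and 4 lower of 19: CSNK1D, a kinase of the PER proteins, was at 187, 183 and 191 CPM in siNS Dex and 102, 108 and 111 CPM in siHP1γ Dex (log2 fold change -0.80 ± 0.0754, adjusted p = 1.38e-08), without overlap. ARNTL, the core activator also called BMAL1, was at 11.4, 11.3 and 12.1 CPM in siNS Dex and 22.8, 25.9 and 21.1 CPM in siHP1γ Dex (log2 fold change 1.0 ± 0.118, adjusted p = 6.12e-07), with every depleted library higher, and NPAS2, a partner of it, was lower (-0.39). RNA polymerase II and pausing genes had 1 higher and 8 lower of 30, and 2 and 4 with scaling by library size alone; ELL2, an elongation factor gene, was higher (0.54, adjusted p = 1.27e-05) and CDK9, the pause-release kinase gene, lower (-0.57, adjusted p = 3.42e-05). Splicing factor genes had 3 higher and 4 lower of 34, with HNRNPF (-0.33), HNRNPA1 (-0.40) and TRA2B (-0.27) lower; 7 were higher with scaling by library size alone. DNA repair genes had 3 higher and 7 lower of 36, PARP1 being lower (-0.42, adjusted p = 4.88e-05) and LIG4, a ligase gene of end joining, higher (0.47, adjusted p = 0.00135). Proteasome genes had 1 higher and 6 lower of 39, and 3 and 2 with scaling by library size alone; PSMF1, an inhibitor subunit gene, was lower (-0.36) and PSME4, an activator gene, higher (0.30). Nucleoporin genes had 0 higher and 4 lower of 21, NUP210 with them (-0.49, adjusted p = 0.000823), and 1 higher and 1 lower with scaling by library size alone. The circadian list had 2 higher without siNS Dex replicate 2. The splicing list had 0 higher without siHP1γ Dex replicate 1 or siNS Dex replicate 3. The repair list had 1 higher without siHP1γ Dex replicate 2 or siNS Dex replicate 1 or 3. The proteasome list had 2 lower without siHP1γ Dex replicate 1, 2 higher without siHP1γ Dex replicate 3 or siNS Dex replicate 2, 10 lower without siHP1γ Dex replicate 3 and 3 lower without siNS Dex replicate 2. The nucleoporin list had 2 lower without siHP1γ Dex replicate 1. The polymerase list had 2 higher without siHP1γ Dex replicate 3. Counts of CSNK1D, NPAS2, CDK9, HNRNPA1, PSMF1 and PSME4 may include reads of overlapping genes.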

How the data were processed

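RNA from 18 MDA-MB-231 libraries (6 conditions, 3 replicates each) was measured, and the 3 siHP1γ Dex and 3 siNS Dex libraries were compared. According to the submitters' processing notes, the authors aligned reads to hg38 with Bowtie2 2.4.2 and made the deposited raw counts of each library, for 60642 gene symbols, with HTSeq 0.9.1. The strand setting and annotation are not given in the sources used here, and the authors' own DESeq2 2.11.40.7 comparisons were not used.

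Counts were analysed with edgeR 4.0.16 in R 4.3.3: filterByExpr, TMM factors, a quasi-likelihood fit with 1 mean per condition (12 residual degrees of freedom) and Benjamini-Hochberg adjustment over all 15298 genes tested. Genes were called at an adjusted p below 0.05, and Dex targets below 0.01 with a fold change of at least 1.5. The siHP1γ Dex and siNS Dex totals ran from 9486609 to 12327634 counts, which limits genes with few counts. Gene lists were described by counts and medians, with no set test; members and lists were chosen with earlier results of these data known. Positions came from GENCODE 44, where 88.6% of genes tested were found, and promoters from RefSeq.

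Genes were named by rule: CBX3, CBX1, CBX5, NR3C1, PRMT5, F2RL2, GIT1, PLAT, IGFBP3 and CCBE1; the 12 largest increases and the 12 largest decreases among called genes of at least 5 CPM with groups that do not overlap, without CBX3 pseudogenes; up to 4 called members of each list, 5 genes of the interaction test and 5 Dex-induced and 5 Dex-repressed genes with the smallest adjusted p. Other genes are said to be chosen after their values were seen. Withheld items are not reported.

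Alternatives tried were DESeq2 1.42.0 on 18 libraries, RLE factors, library size only, no filter, at least 10 counts in every library, a replicate block, the 6 libraries alone (edgeR and DESeq2), a fold change of at least 1.5, and each of the 6 libraries left out. The code was tested on simulated data.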

Additional observations from a re-analysis of the deposited data

Results flagged for a closer look

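The test of whether HP1γ depletion acted differently with and without Dex picked out 61 genes, each with an effect that differed between both settings. The 5 with the smallest adjusted p were SDC3 (difference -0.92 on the log2 scale), ABLIM3 (-0.67), AKAP12 (-0.87), HAS2 (1.16) and LTBP1 (-0.89). The causes of these differences were not tested.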

How the results depend on the processing

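Of 205 named genes, 184 kept their direction and their side of the threshold under every alternative in which they could be tested; 200 could be tested with at least 10 counts in every library, and not all with the 6 libraries alone. The fold change threshold was not tried on single genes. CBX1, CBX5 and NR3C1, none of them called, changed sign. CBX1 was at 0.059 with library size only and CBX5 at -0.0045 without a filter. With 1 library left out CBX1 ran from -0.058 to 0.0090, CBX5 from -0.067 to 0.0497 and NR3C1 from -0.0555 to 0.13. CBX3 ran from -4.18 to -3.94.

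Genes higher numbered 2848 with library size only and 1166 with DESeq2 on the 6 libraries, beside 1438 with edgeR on the 6 libraries and 1635 with DESeq2 on 18. A fold change of at least 1.5 left 1124 genes, 569 higher and 555 lower. With 1 library left out 2774 to 3611 genes were called, 1220 to 1748 higher and 1476 to 1863 lower; without Dex 4663 to 5249 were called. Dex-regulated genes numbered 824 to 853 in siPRMT5 and 366 to 431 in siNS cells. Of the Dex-induced genes 46 to 59 were higher and 87 to 102 lower, and of the Dex-repressed genes 144 to 173 were higher and 20 to 32 lower. DESeq2 on the 6 libraries gave 20 Dex-repressed genes that were lower.

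The count of the test of the difference with and without Dex moved with the method and with single libraries: 298 genes with DESeq2 on 18 libraries, 374 without a filter, and 24 to 77 with 1 library left out. The causes were not tested.

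With replicate number as a block the difference test called 94 genes, and of the named genes HOXD1 and NUP155 lost their call. Whether replicate numbers pair samples is not given: across genes, deviations from the group mean in siHP1γ Dex and siNS Dex samples of the same number had correlations of -0.0092, 0.0484 and -0.0195, and not every sample correlated best with its own number.

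Depth limits genes with few counts: under 1 CPM, 56 of 906 genes were higher and 21 lower.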
